A study of Mus musculus with 42 samples.

Results

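RNA of joint soft tissue was compared between days 21 and 14 of a repair course that followed knee arthroplasty surgery in mice, in which the joint is operated on and an implant is placed. The comparison used 4 libraries labelled RST day 21 and 4 labelled RST day 14, which are 8 of the 24 joint soft tissue libraries and of the 42 libraries of the series. Both groups came from wild-type C57BL/6 mice, and the labels give no further treatment or age for either and do not spell out RST. The other joint groups, RST days 3, 7 and 35 and LST day 35 with 4 libraries each, shared the estimate of the spread and give the time course around the step. Nothing in the labels says whether each library was a separate animal, and p-values therefore reflect the spread among the libraries at hand, part of which may be technical. Some replicates of RST days 14 and 21 differed more from each other than any replicates of the day 35 groups did. The shared estimate of the spread may therefore be too small for this comparison, and its p-values too low.

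Wounded musculoskeletal tissue first fills with inflammatory and dividing cells, then with collagen-producing fibroblasts, and this matrix is later reorganised or replaced. Cartilage-type matrix can form transiently in such tissue, and its hallmarks are the proteoglycan aggrecan and collagens II, IX and XI under the transcription factor Sox9. Injured muscle fibres are rebuilt from satellite cells over the same weeks. In RNA from bulk tissue, fewer cells of a type and less RNA per cell cannot be told apart.

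Total counts were 20563850 to 24814864 in RST day 21 libraries and 20129243 to 27444537 in RST day 14 libraries. Skeletal muscle dominated both groups: Acta1, the skeletal muscle actin, stood at 27438 to 38647 CPM (counts scaled to library size, on the TMM scale) on RST day 21 and 20893 to 29350.5 on RST day 14. Markers of fibroblasts, macrophages, endothelium and synovial lining were all detected. The skin keratins Krt5 and Krt14 were at 0 in each RST day 21 library. On RST day 14 they reached at most 0.0968 and 0.0443 CPM. The skin keratin Krt10, by contrast, was detected in every library, at 3.73 to 4.19 CPM on RST day 21 and 3.1 to 4.4 CPM on RST day 14. Of the neutrophil markers, S100a8 stood at 1.48 to 18.8 CPM on RST day 21 and 2.7 to 15.3 CPM on RST day 14 and S100a9 at 2.25 to 28.0 and 3.86 to 22.8 CPM on the same days, Mpo reached 2.03 CPM on RST day 21 and 1.16 CPM on RST day 14, and Ly6g reached 0.161 and 0.045 CPM. Mitochondrially encoded genes took 9.06 ± 1.01% of counts on RST day 21 and 7.62 ± 1.25% on RST day 14 (SD, n = 4 each).

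Replicate 2 of RST day 21 stood apart from the other RST day 21 libraries. On the first principal component of all joint libraries, which carried 65.2% of the variance, the RST day 21 replicates 1 to 4 lay at -32.6, 28.9, -45.3 and -12.5 and the RST day 14 replicates 1 to 4 at 24.4, 58.5, -2.39 and 14.1. Replicate 2 therefore fell among the RST day 14 libraries. The mean log2 CPM of 16 measured acute inflammatory genes was 0.06, 2.21, -0.18 and 0.09 in the RST day 21 replicates 1 to 4, against 1.57, 2.19, 0.70 and 0.61 in the RST day 14 replicates. Each result is given with all 8 libraries and, where it turns on that library, without it. Replicate 2 differs in the very genes that are compared, so the values without it are no independent support.

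Of 16149 genes tested, 119 passed an adjusted p of 0.05 (0.737%), and most of these were lower on RST day 21: 105 fell (0.65%) and 14 rose (0.0867%). Among them, 59 fell and 1 rose by more than 2-fold. The median log2 fold change over all genes was -0.022. Replicate 2 was the highest RST day 21 library for 89 of the 105 genes that fell. How often it was the highest over all genes tested was not counted, so 89 is given as a value only. The CPM ranges of the 2 groups did not overlap for 75 of the 119, against 893 of all genes tested (5.53%), 414 of them higher (2.56%) and 479 lower (2.97%). Without replicate 2, 4466 of 16411 genes passed (27.2%), of which 2710 fell (16.5%) and 1756 rose (10.7%), and 885 of the falls but 26 of the rises were over 2-fold. All 119 genes passed and had the same direction in that fit. The count also rested on other single libraries: 1322 genes passed without RST day 14 replicate 3, 66 without RST day 14 replicate 4, 15 without RST day 14 replicate 1 or RST day 21 replicate 4, 4 without RST day 14 replicate 2 or RST day 21 replicate 3, and 2 without RST day 21 replicate 1. When the spread was estimated from the 8 libraries alone, 0 genes passed.

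Cartilage matrix genes held many of the falls. Of the 21 members of the cartilage matrix and chondrocyte list, 19 were measured, that is, passed the filter on low counts. Of these, 10 fell and none rose, while 0.65% of all genes fell and 0.0867% rose. The list median log2 fold change was -1.66 against -0.022 over all genes. The CPM ranges did not overlap for 1 of the 19, against 5.53% of all genes. The mean log2 CPM of the list was 2.64 in RST day 14 replicate 3, below RST day 21 replicates 2 and 4 (3.13 and 3.3). In the order of replicates 1 to 4, used throughout, Acan, which encodes aggrecan, had 21.4, 69.0, 15.4 and 21.9 CPM on RST day 21, against 107, 155, 51.6 and 91.8 CPM on RST day 14. Replicate 2 on RST day 21 exceeded the lowest RST day 14 library, so the ranges overlapped through that library alone. The log2 fold change of Acan was -1.66 (SE 0.34, adjusted p = 0.0309), and -2.35 without replicate 2 (SE 0.26, adjusted p = 2.78e-05). With each of the 8 libraries left out in turn, it ran from -2.35 to -1.37 and the adjusted p reached 0.193. Acan passed in 3 of these 8 fits, and each of the 10 genes that fell passed in 2 or 3.

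Both cartilage genes of collagen XI fell. Col11a1 had 26.5, 94.7, 18.4 and 35.3 CPM on RST day 21, against 136, 236, 75.0 and 143 CPM on RST day 14 (log2 fold change -1.75, SE 0.36, adjusted p = 0.0309). Col11a2 had 10.9, 13.1, 8.56 and 19.9 CPM on RST day 21, against 43.9, 35.2, 17.3 and 38.9 CPM on RST day 14 (-1.36, SE 0.27, adjusted p = 0.0308). RST day 14 replicate 3 was the lowest library of its day for each of them.

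All 3 chains of collagen IX, which coats collagen II fibrils, fell: Col9a1 by 1.63, Col9a2 by 2.28 and Col9a3 by 2.58 on the log2 scale. Col9a3 had 0.396, 0.928, 0.494 and 2.68 CPM on RST day 21, against 10.6, 4.67, 0.399 and 11.9 CPM on RST day 14. Here the overlap came from RST day 14 replicate 3, which was as low as the RST day 21 libraries. The matrilins Matn3 (-2.04) and Matn4 (-1.67), which link matrix components, also fell, as did Ucma (-2.15), a secreted protein of young cartilage that was low in every library. Sox9, the regulator of cartilage genes, had 3.85, 9.44, 4.99 and 6.24 CPM on RST day 21, against 9.72, 18.9, 10.1 and 10.3 CPM on RST day 14. Its ranges did not overlap, and it fell by 0.99 (SE 0.23, adjusted p = 0.0456).

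Collagen II itself did not pass. Col2a1 had 5.43, 27.9, 10.3 and 70.8 CPM on RST day 21, against 167, 71.1, 12.5 and 243 CPM on RST day 14 (log2 fold change -2.10, SE 0.67, adjusted p = 0.0871). Libraries of both days varied more than 10-fold. Without replicate 2 of RST day 21, 14 of the 19 list members fell, against 16.5% of all genes. Col2a1 and Comp were among them, and Sox6, a partner of Sox9, rose.

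Tendon genes fell in part: 4 of 15 measured members of the tendon and ligament list fell and none rose, with a median of -0.78. Of all genes, 0.65% fell. The ranges did not overlap for 5 of the 15, against 5.53% of all genes. Tnmd, which encodes tenomodulin, a membrane protein of tendon cells, had 24.5, 45.6, 18.1 and 28.5 CPM on RST day 21, against 61.1, 92.6, 56.1 and 63.8 CPM on RST day 14. All RST day 21 libraries lay below all RST day 14 libraries, and the log2 fold change was -1.22 (SE 0.21, adjusted p = 0.0189). The tendon transcription factor Mkx fell by 1.08 (SE 0.22, adjusted p = 0.0308), with 1.86 to 3.95 CPM on RST day 21 and 4.89 to 6.83 CPM on RST day 14. Fmod, encoding the collagen-binding fibromodulin, fell by 0.78 (SE 0.18, adjusted p = 0.0439), and Col11a1 is the member shared with the cartilage list. Scx, encoding the tendon regulator scleraxis, did not overlap between the days (12.7 to 21.7 CPM on RST day 21, 23.9 to 35.2 CPM on RST day 14) but did not pass (adjusted p = 0.0871).

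**Figure D1:**
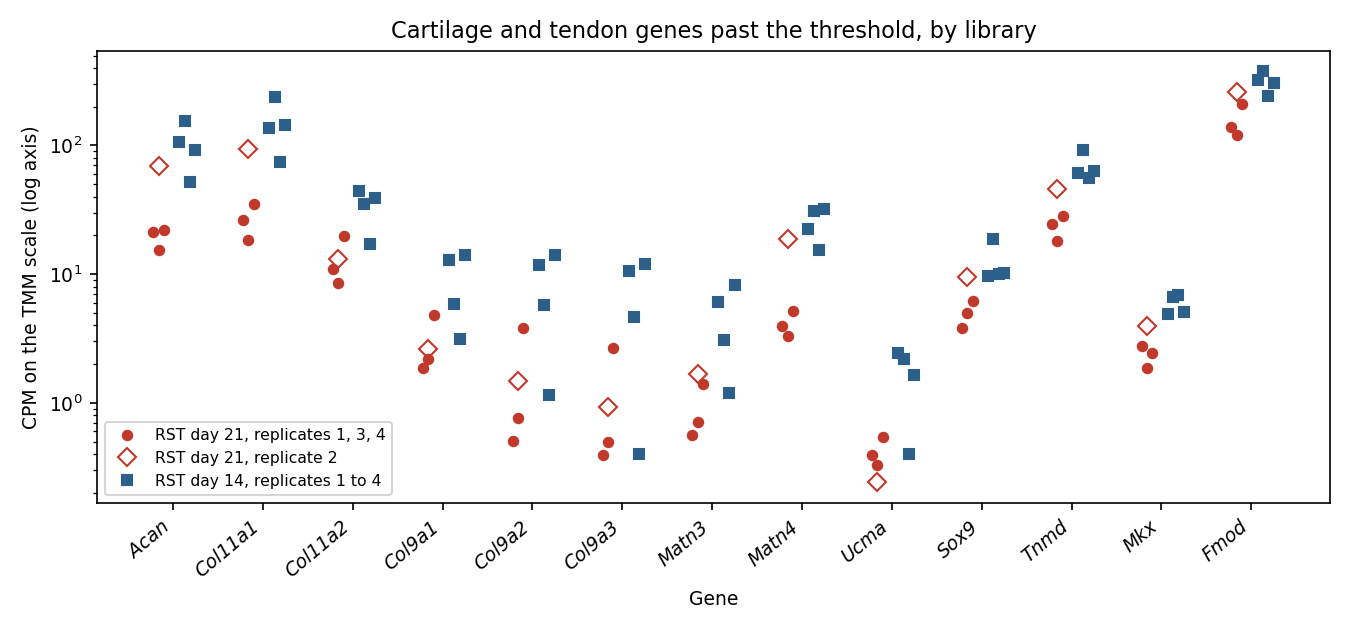
CPM (log axis) of cartilage and tendon genes past the threshold in each library, with RST day 21 on the left of each pair and RST day 14 on the right. The open diamond marks RST day 21 replicate 2, which for Acan (69.0 CPM) and Matn4 (18.6 CPM) lies well above the other RST day 21 libraries.

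A set of imprinted growth genes was noticed among the falls and listed after the values were seen, so the list was not tested. Many such genes, though not all in every tissue, are expressed mainly from 1 parental copy and are most active in fetal tissue. Of 23 measured members of the list, 6 fell and 1 rose, while 0.65% of all genes fell and 0.0867% rose. The list median was -0.17. Mest, a paternally expressed gene of embryonic mesoderm, had 9.90, 27.1, 6.80 and 13.1 CPM on RST day 21, against 41.0, 97.1, 34.2 and 56.4 CPM on RST day 14. These ranges did not overlap, and the log2 fold change was -1.99 (SE 0.30, adjusted p = 0.00517). Plagl1, a zinc finger transcription factor, had 11.1, 21.8, 7.90 and 10.6 CPM on RST day 21, against 28.6, 53.9, 27.0 and 26.3 CPM on RST day 14 (-1.39, SE 0.28, adjusted p = 0.0308). Dlk1, a transmembrane inhibitor of adipocyte differentiation, had 2.49, 2.66, 1.65 and 2.33 CPM on RST day 21, against 7.16, 12.7, 3.63 and 4.72 CPM on RST day 14 (-1.63, SE 0.34, adjusted p = 0.0309). For Mest and Plagl1, replicate 2 was the highest library on each day.

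The noncoding RNAs Meg3 (-1.05) and Rian (-0.97), which lie on chromosome 12 downstream of Dlk1, fell as well. Since the strand setting of the counting is not known, reads of overlapping transcripts in that locus cannot be separated. The cell cycle inhibitor Cdkn1c fell by 0.66 (SE 0.13, adjusted p = 0.0309), with 17.8 to 23.7 CPM on RST day 21 and 29.0 to 38.8 CPM on RST day 14. Gnas, encoding the stimulatory G protein alpha subunit, was the member that rose, by 0.43 (SE 0.10, adjusted p = 0.0421).

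The smallest adjusted p among protein-coding genes, 0.00517, was shared by Nrk, Mest and Egfl6. Nrk, an X-linked kinase gene, had 2.49, 2.06, 1.15 and 0.842 CPM on RST day 21, against 5.52, 12.2, 4.52 and 5.62 CPM on RST day 14, and fell by 2.10 (SE 0.31). It passed whichever of the 8 libraries was left out, with an adjusted p of at most 0.0398. Egfl6, a secreted protein with EGF repeats, had 2.09, 3.67, 1.81 and 1.73 CPM on RST day 21, against 8.13, 12.2, 7.05 and 7.29 CPM on RST day 14, and fell by 1.88 (SE 0.29). Mest and Egfl6 each passed in 7 of the 8 such fits, and their adjusted p reached 0.0522 in the other one. Apart from these and the tRNA gene mt-Tc, each of the 119 genes passed in 2 to 5 of the 8 fits.

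The heparin-binding growth factors Ptn and Mdk, the pair that makes up the pleiotrophin and midkine family, both fell. Ptn had 15.2, 34.0, 10.1 and 13.1 CPM on RST day 21, against 44.8, 93.0, 40.9 and 41.9 CPM on RST day 14 (-1.60, SE 0.29, adjusted p = 0.0189). Mdk had 5.04, 17.6, 5.27 and 7.88 CPM on RST day 21, against 17.3, 33.0, 17.4 and 19.2 CPM on RST day 14 (-1.26, SE 0.28, adjusted p = 0.0406). Replicate 2 brought the Mdk ranges into overlap, while those of Ptn stayed apart.

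Other large falls with ranges that did not overlap were Cpz (-1.62), a secreted carboxypeptidase, Cybrd1 (-1.53), a ferric reductase, Fam198a (-1.38), Adamts17 (-1.37), a secreted metalloprotease, Kntc1 (-1.36), a kinetochore protein, and Cdh2 (-1.32), N-cadherin. Each was low, and none exceeded 7.83 CPM in an RST day 14 library.

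A muscle atrophy gene was among the few that rose. Trim63, encoding the muscle ubiquitin ligase MuRF1, had 303, 179.8, 259 and 227 CPM on RST day 21, against 138, 123, 175 and 165 CPM on RST day 14 (0.69, SE 0.16, adjusted p = 0.0452). All RST day 21 libraries exceeded all RST day 14 libraries. Fbxo32, encoding the other classic muscle atrophy ligase, atrogin-1, had 412 to 542 CPM on RST day 21 and 154 to 302 CPM on RST day 14 but did not pass (0.89, SE 0.23, adjusted p = 0.0599). Trim63 was the 1 member of 15 on the muscle atrophy and denervation list that rose; the list median was 0.04. Without RST day 21 replicate 2, 3 members rose and 2 fell, while 10.7% of all genes rose and 16.5% fell. These counts are given as values only.

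Further protein-coding genes rose by small amounts. Celf2, a splicing regulator (0.57, SE 0.10, adjusted p = 0.0189), and Pnrc1, a nuclear receptor coactivator (0.51, SE 0.09, adjusted p = 0.0189), had the same adjusted p. Thrb, the thyroid hormone receptor beta, rose by 0.52, the deubiquitinase gene Zranb1 by 0.42, Kctd9 by 0.37, the glutathione transferase Gstp1 and the transcription factor Zfhx3 by 0.36 each, and Larp1, which binds mRNAs of the translation machinery, by 0.35. Tuba4a, an alpha-tubulin, rose by 0.63 and Rabl6 by 0.38, each with ranges that overlapped. The mitochondrial cysteine tRNA gene mt-Tc, outside the rule for protein-coding genes and named after its value was seen, had 1.87, 1.45, 2.85 and 2.03 CPM on RST day 21, against 0.629, 0.419, 0.621 and 0.54 CPM on RST day 14 (1.89, SE 0.27, adjusted p = 0.00517). It passed with any 1 library left out, but overlapping mitochondrial transcripts cannot be separated without the strand.

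**Figure D2:**
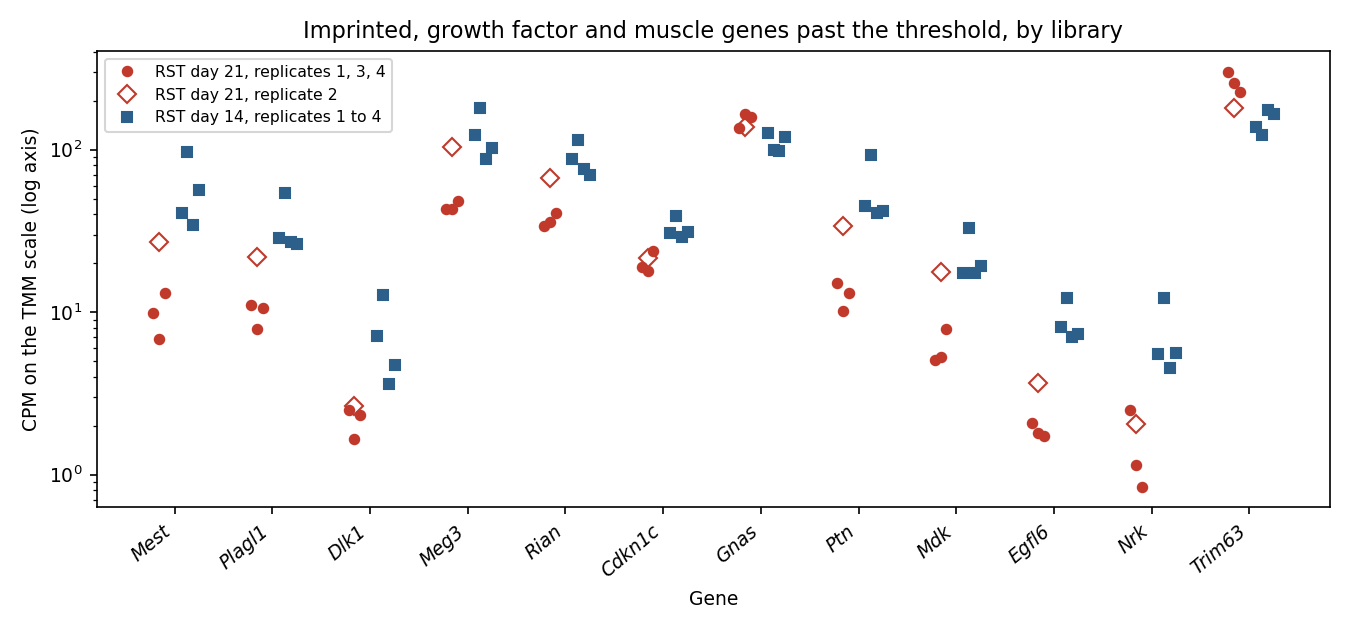
CPM (log axis) of imprinted, growth factor and muscle genes past the threshold in each library, with RST day 21 on the left of each pair and RST day 14 on the right. Every gene shown but Meg3 and Mdk has ranges that do not overlap, and Gnas and Trim63 are higher on RST day 21.

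Scar matrix genes leaned down together, but few passed with all 8 libraries. All 27 members of the fibrillar matrix and activated fibroblast list had a negative log2 fold change (median -0.93), against 53% of all genes. Col8a2, a chain of collagen VIII, was the 1 that fell (-1.31, SE 0.29, adjusted p = 0.0421). Col1a1, the main chain of collagen I, had 1749, 5341, 1113 and 2631 CPM on RST day 21, against 5240.3, 9629.9, 3721 and 5120.4 CPM on RST day 14 (-1.13, SE 0.33, adjusted p = 0.0754). Replicate 2 on RST day 21 lay within the RST day 14 range. Without it, 24 of the 27 fell, against 16.5% of all genes, and the list median was -1.38. In that fit Col1a1 fell by 1.67 (adjusted p = 0.000575), Postn, encoding periostin, by 1.88 and Tnn, encoding tenascin-N, by 2.09. The collagen processing list behaved likewise: all 22 members were negative (median -0.64), the prolyl hydroxylase P3h1 fell (-0.74, adjusted p = 0.0452), and 20 fell without replicate 2 (median -1.0).

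Elastic fibre genes and small proteoglycans, listed after values were seen and not tested as lists, held further falls. Over all genes, 0.65% fell. Of 18 elastic fibre and microfibril genes, 3 fell: Eln, encoding elastin (-0.84, SE 0.20, adjusted p = 0.0456), and the microfibril genes Mfap2 (-1.11) and Mfap4 (-1.23). Eln had 82.1 to 123 CPM on RST day 21 and 145 to 235 CPM on RST day 14. Of 14 small leucine-rich proteoglycans, Fmod and Ogn (-0.89) fell.

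**Figure D3:**
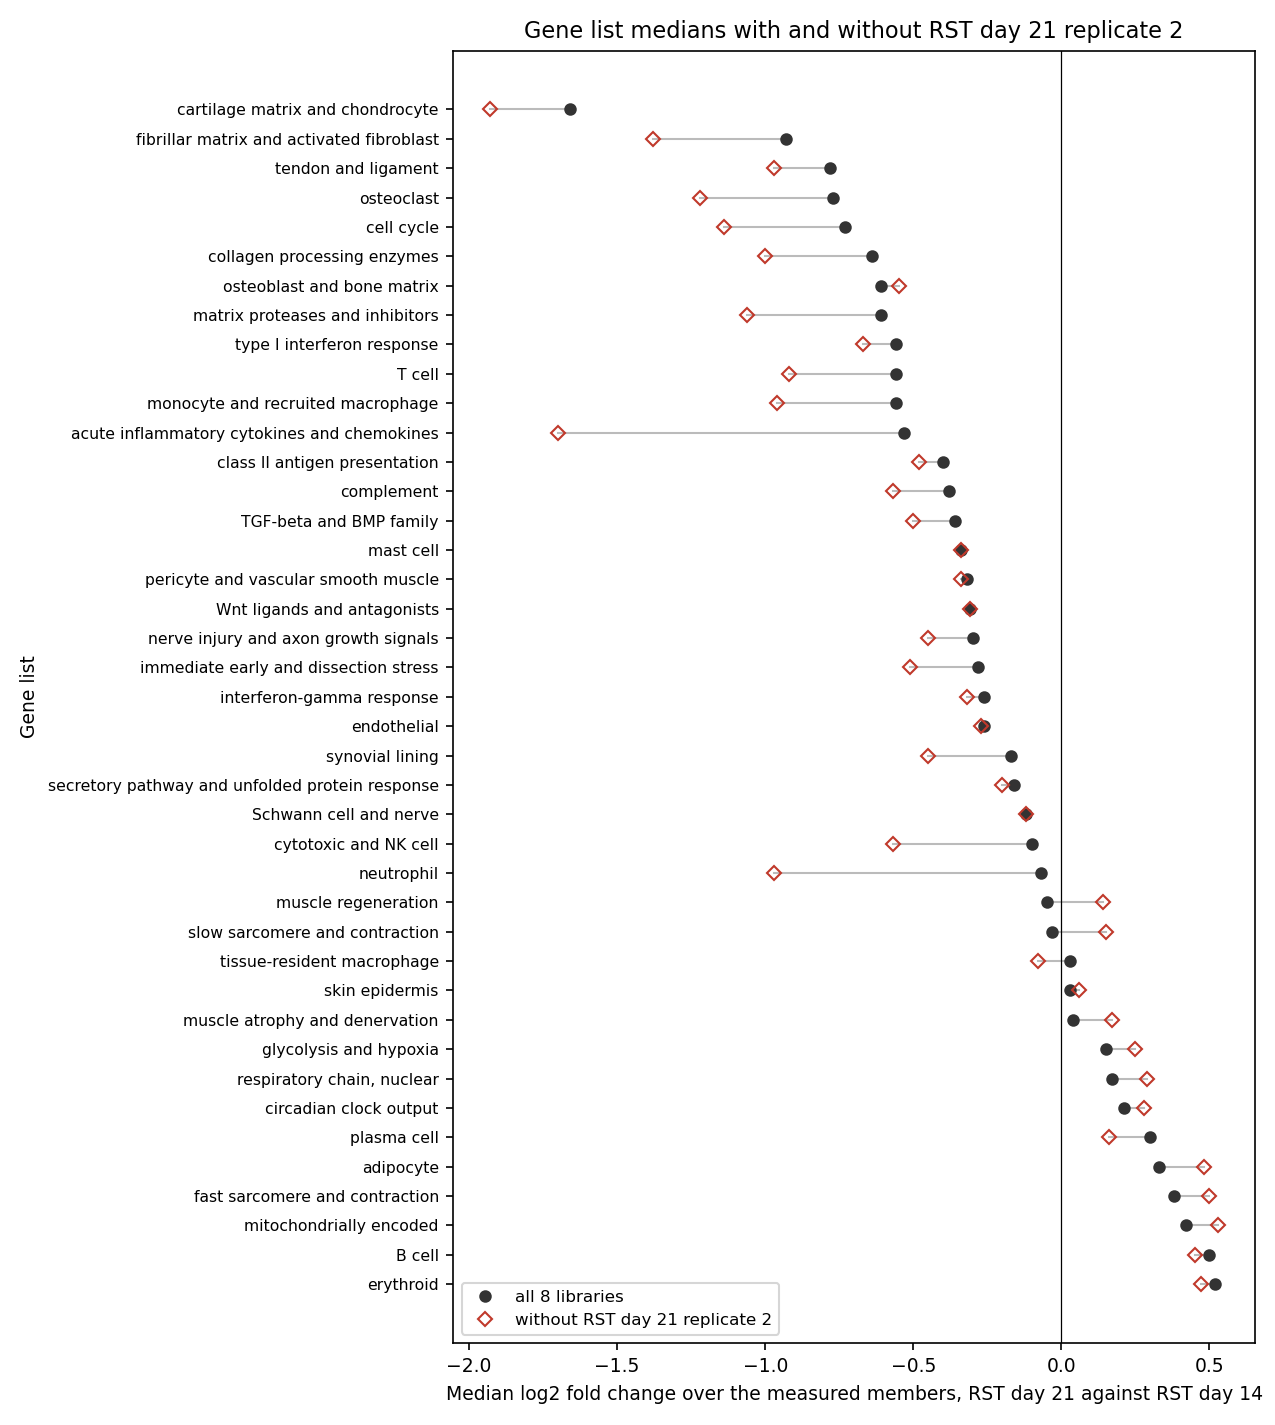
Median log2 fold change of each of 41 gene lists over its measured members, RST day 21 against RST day 14, with all 8 libraries (filled circles) and without RST day 21 replicate 2 (open diamonds). The cartilage list lies lowest either way (-1.66 and -1.93), and the acute inflammatory list moves most (-0.53 and -1.70).

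Over the 41 lists, 29 medians were negative and 12 positive, and 34 lists had no member past the threshold with all 8 libraries. Beside those named above, 2 lists had 1 such member: the glycolysis and hypoxia list, in which Hk1, a hexokinase, fell (-0.59, adjusted p = 0.0456), and the muscle regeneration list through Cdkn1c. The plot of list medians shows which depended on replicate 2.

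No member of the lists of inflammatory genes and inflammatory cells passed with all 8 libraries, and genes outside the lists were not screened for this. Of 16 acute inflammatory genes, 0 passed with all 8 libraries and 11 fell without replicate 2. In the fit without replicate 2, 16.5% of all genes fell. Il1b, a cytokine of activated macrophages and neutrophils, had 3.68, 25.2, 2.47 and 2.97 CPM on RST day 21, against 14.9, 19.9, 4.30 and 3.19 CPM on RST day 14. Its log2 fold change was -0.28 (adjusted p = 0.788) with all libraries and -1.78 (adjusted p = 0.0164) without replicate 2. Replicate 2 alone on RST day 21, and replicates 1 and 2 on RST day 14, were high. Of 21 monocyte and recruited macrophage genes, 20 were negative (median -0.56), and 15 fell without replicate 2 (median -0.96). Neutrophil genes were split: of 16 measured, 8 were negative and 8 positive (median -0.07), and 2 fell without replicate 2 (median -0.97). Matrix proteases and inhibitors (0 of 24, then 17 fell) and osteoclast genes (0 of 14, then 9 fell) also had none past the threshold with all libraries. Tissue-resident macrophage genes had a median of 0.03 with all libraries and -0.08 without replicate 2.

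**Figure D4:**
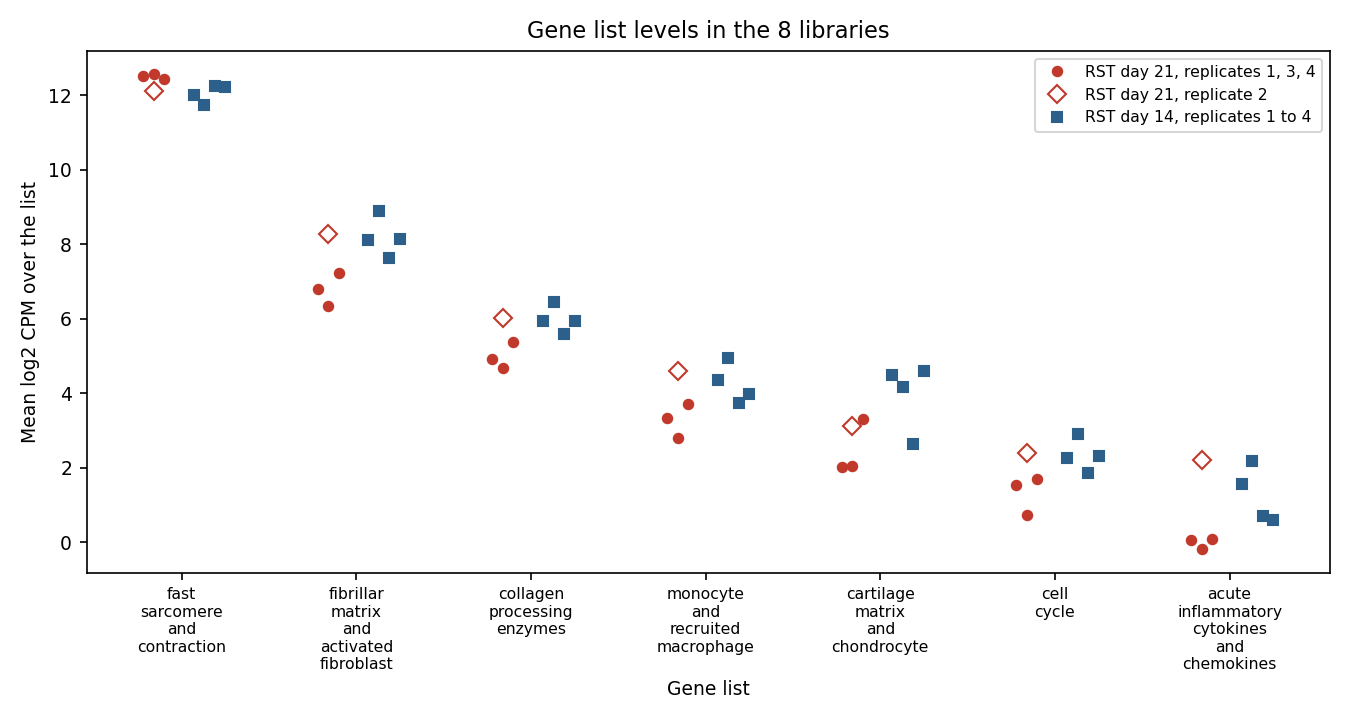
Mean log2 CPM over 7 gene lists in each library, with RST day 21 on the left of each pair and RST day 14 on the right. For the acute inflammatory list RST day 21 replicate 2 stands at 2.21, beside -0.18 to 0.09 in the other RST day 21 libraries.

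Of 34 cell cycle genes, 32 had a negative log2 fold change (median -0.73) and 0 passed with all 8 libraries. Without RST day 21 replicate 2, 28 fell (median -1.14). Of all genes, 53% were negative with all 8 libraries, and 16.5% fell without replicate 2. Top2a, a topoisomerase of dividing cells, had 5.49, 16.1, 2.69 and 8.27 CPM on RST day 21, against 14.2, 22.3, 9.17 and 13 CPM on RST day 14 (-0.83, SE 0.35, adjusted p = 0.148). Cdk1, the mitotic kinase, had 2.38, 4.72, 0.932 and 2.53 CPM on RST day 21, against 4.93, 8.41, 3.55 and 5.26 CPM on RST day 14 (-1.05, SE 0.36, adjusted p = 0.0978). Replicate 2 lay inside the RST day 14 range for both. Without it, Top2a fell by 1.39 (adjusted p = 0.00473) and Cdk1 by 1.49 (adjusted p = 0.00653).

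Promoters of cell cycle genes are known for CCAAT boxes and for the cell cycle homology region, TTTGAA or TTCGAA. Both were searched on both strands in the 250 bases before the start of RefSeq genes (GRCm38.p6). Among the 28 members that fell without replicate 2, 23 had a promoter in the table, of which 87% held CCAAT and 39.1% the homology region. Of all 11752 genes tested that had a promoter there, 39.6% and 14.8% held them. The shares over all 28 members of the list with a promoter were 82.1% and 35.7%. The promoters of 4 such genes are shown because they carry several of these letter runs, and were picked after the search. They are the 120 bases before the start of Cdk1 (chr10:69352913-69353032, minus strand), Ccnb2 (chr9:70421555-70421674, minus strand), Ube2c (chr2:164769809-164769928, plus strand) and Cdc20 (chr4:118437344-118437463, minus strand), with CCAAT or the homology region, in either orientation, in capitals.
Cdk1: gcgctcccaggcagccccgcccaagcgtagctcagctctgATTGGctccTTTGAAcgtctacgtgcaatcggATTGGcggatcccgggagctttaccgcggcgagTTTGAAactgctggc
Ccnb2: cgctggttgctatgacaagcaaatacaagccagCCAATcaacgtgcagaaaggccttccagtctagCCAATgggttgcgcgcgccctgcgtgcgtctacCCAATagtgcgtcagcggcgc
Ube2c: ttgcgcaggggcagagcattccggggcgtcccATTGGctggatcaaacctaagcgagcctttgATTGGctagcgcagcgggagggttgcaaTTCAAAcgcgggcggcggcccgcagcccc
Cdc20: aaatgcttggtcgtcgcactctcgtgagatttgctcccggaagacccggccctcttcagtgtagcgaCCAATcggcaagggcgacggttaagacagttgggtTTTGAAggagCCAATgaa
Ccnb2, a mitotic cyclin, Ube2c, a ubiquitin-conjugating enzyme of mitosis, and Cdc20, an activator of the anaphase-promoting complex, had log2 fold changes of -0.83, -0.61 and -0.62 with all libraries and fell by 1.18, 0.77 and 1.24 without replicate 2. A match of letters is a description and not a binding site.

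Most genes of the fast sarcomere and of the mitochondrially encoded proteins had positive log2 fold changes, but none of these passed with all 8 libraries. Of 24 fast sarcomere and contraction genes, 22 had a positive log2 fold change (median 0.38), 0 passed with all libraries and 9 rose without replicate 2 (median 0.50). Without replicate 2, 10.7% of all genes rose. Of 13 slow sarcomere and contraction genes, 6 were positive and 7 negative (median -0.03), and none rose with or without replicate 2. Myh4, the fast myosin heavy chain, had 64223, 52432, 59395 and 58907 CPM on RST day 21, against 36869, 39290.4, 50609 and 55113 CPM on RST day 14 (0.37, SE 0.22, adjusted p = 0.287). All 8 measured members of the mitochondrially encoded list, which has 13 members, were positive (median 0.42), and 6 rose without replicate 2. The mean log2 CPM of the fast sarcomere list was 12.52, 12.12, 12.56 and 12.45 in the RST day 21 libraries, against 12, 11.74, 12.24 and 12.22 in the RST day 14 libraries. Replicate 2 was the lowest library on each day, and the part of the muscle share in the falls of other genes was not tested. Of 16 adipocyte genes, 14 were positive and 4 rose without replicate 2.

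Haemoglobin and other erythroid genes were all positive without passing: 11 of 11 measured members had a positive log2 fold change (median 0.52). Of all genes tested, 53% were negative. For 6 of the 11 the ranges did not overlap, against 5.53% of all genes, and none passed with or without replicate 2. Hbb-bt, an adult beta-globin, had 22.5, 23.3, 21.4 and 22.0 CPM on RST day 21, against 14.8, 12.7, 19 and 13.8 CPM on RST day 14 (0.57, SE 0.25, adjusted p = 0.165). The near-identical globin copies share reads, so their separate values are uncertain.

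In the time course, Acan and Mest were highest on RST day 7 and Trim63 was lowest then. Mean Acan was 9.07, 153, 101, 31.9 and 5.42 CPM on RST days 3, 7, 14, 21 and 35, and 0.444 CPM on LST day 35. Mean Mest was 26.6, 297, 57.2, 14.2 and 3.72 CPM on the same RST days, and 3.35 CPM on LST day 35. Mean Trim63 was 387, 133, 150.2, 242 and 287 CPM on those days, and 302 CPM on LST day 35. RST day 14 against RST day 7 gave 6284 genes past the threshold (38.9%), 3377 higher (20.9%) and 2907 lower (18%), and RST day 35 against RST day 21 gave 641 (3.97%), of which 13 were higher (0.0805%) and 628 lower (3.89%) on RST day 35. Each of these comparisons shares a group with the step from day 14 to 21.

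The step was tested directly against the preceding step of the same 7 days, as the difference between the changes from day 14 to 21 and from day 7 to 14. One gene passed of 16149 (0.00619%), and 1769 had an unadjusted p below 0.05. Cilp2, which encodes a cartilage intermediate layer protein, had 14.8, 26.6, 13.6 and 29.7 CPM on RST day 21, against 36.1, 45.5, 30.1 and 39.2 CPM on RST day 14, which in turn lay above its RST day 7 range of 8.79 to 17.7 CPM. Its log2 fold change was -0.83 (SE 0.21, adjusted p = 0.0576) for RST day 21 against RST day 14 and 1.64 (SE 0.21, adjusted p = 3.67e-05) for RST day 14 against RST day 7, and the difference of the steps was -2.47 (SE 0.35, adjusted p = 0.00603). Without RST day 14 replicate 2, 460 genes passed that test.

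**Figure D5:**
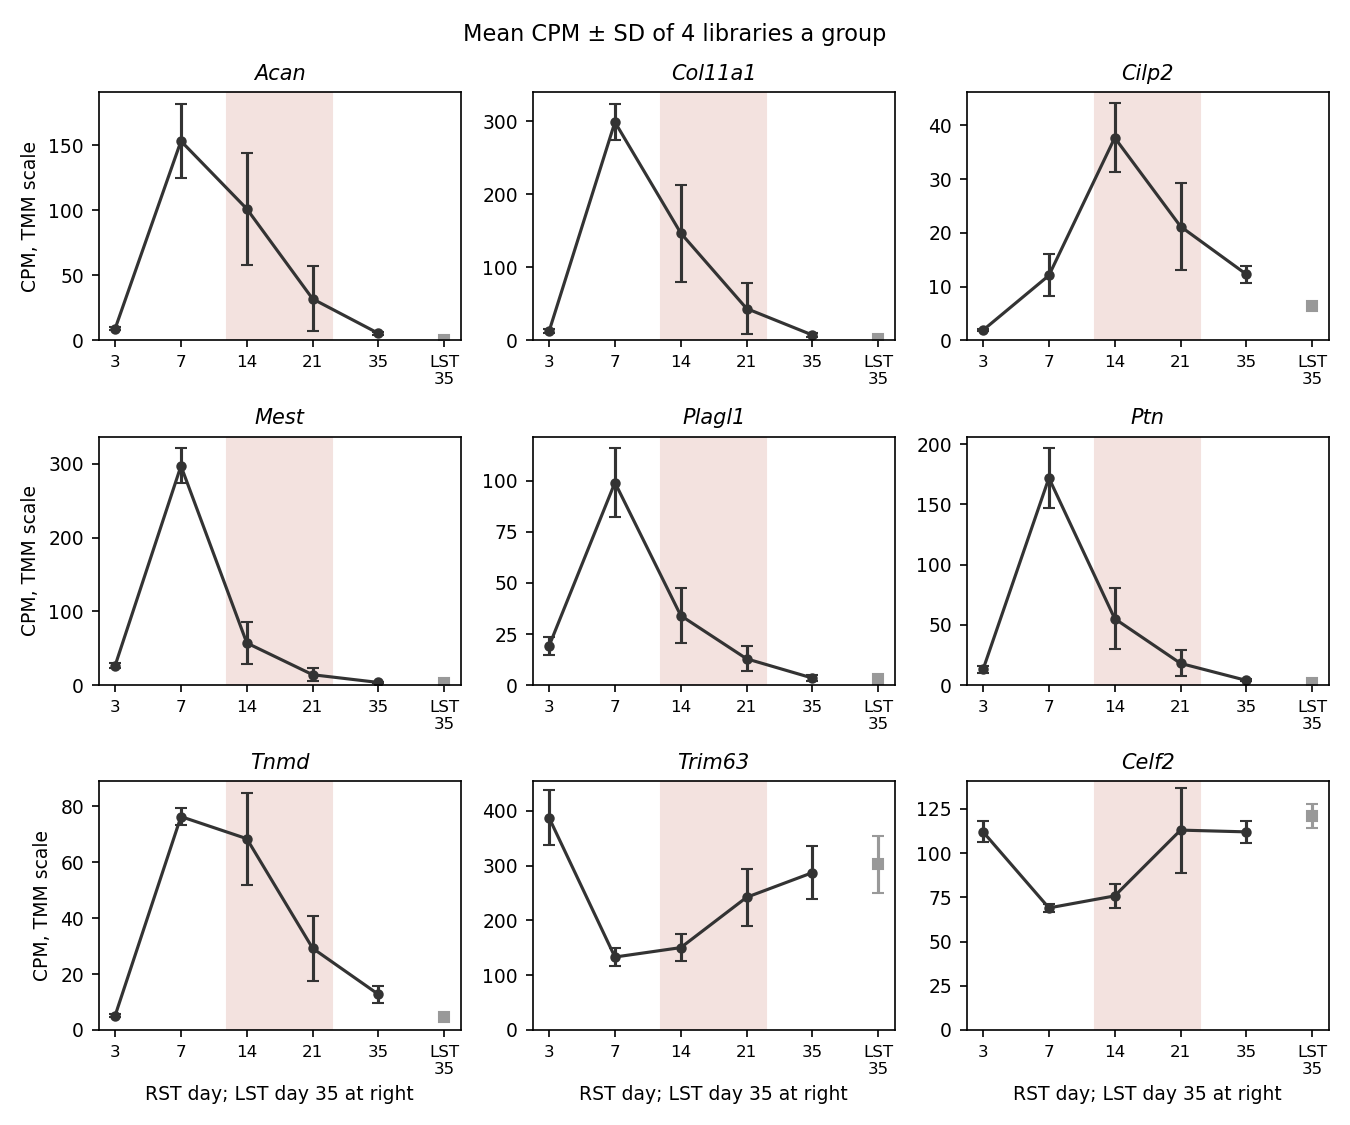
Mean CPM ± SD (n = 4 libraries a group) of 9 genes over RST days 3, 7, 14, 21 and 35, with LST day 35 at the right and the step from day 14 to 21 shaded. Cilp2 peaks at day 14 (37.7 CPM), while the means of Acan, Col11a1, Mest, Plagl1, Ptn and Tnmd are highest on day 7. For Tnmd the means of days 7 and 14 are close (76.3 and 68.4 CPM). Its day 7 range (73.1 to 80.6 CPM) lies inside its day 14 range (56.1 to 92.6 CPM).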

How the data were processed

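Whole-number counts per gene of joint soft tissue, as deposited by the authors, were used unnormalised. Per the labels' protocols, flash-frozen tissue gave RNA with Trizol, and libraries were made with the NEBNext Ultra II kit. Per the submitters' processing notes, fastp, STAR and the build mm10 were used. How reads were counted, with which annotation and strand setting, is not stated in the sources at hand. The lymph node table was not used here.

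Identifiers were matched to GENCODE M21 for 36591 of 36604 genes. No 2 replicates agreed within sampling noise (lowest chi-square per degree of freedom 8.27). In edgeR 4.0.16 (R 4.3.3), low genes were dropped by filterByExpr at a minimum count of 10 and libraries scaled by TMM. Genes were tested by the quasi-likelihood F test over all 24 joint libraries in 6 groups, with Benjamini-Hochberg adjustment over all genes and a threshold of 0.05. Each SE was taken as the size of the log2 fold change divided by the root of its F. List levels are mean log2 CPM (prior count 2). The test was tried on simulated data. Alternatives were each library left out, the 8 libraries alone, RLE scaling, no filter, a replicate block and DESeq2 1.42.0.

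Named genes were the 12 largest rises and falls with a mean count of at least 50, named protein-coding genes and ranges that did not overlap, rises being filled up by smallest p, and up to 3 members of each list. Members and lists were chosen with earlier results of these data known; list members named without replicate 2, promoters and 3 lists were chosen after seeing the data. Results for a few genes that the naming rule gives are not reported here.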

Additional observations from a re-analysis of the deposited data

Results flagged for a closer look

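In single named genes, 1 library lay far from the other 3 of its group by Dixon's ratio, which chance gives in about 1 of 20 groups. That rate does not apply here. Many of these genes were named because they passed without RST day 21 replicate 2, which favours genes in which that library is far off. RST day 21 replicate 2 was the far high library, in CPM, for Acan (69.0), C1s1 (58.1), Cd14 (33.3), Clec4d (17.6), Clec4e (11.8), Clec4n (18.6), Fosb (9.76), Gap43 (1.33), Has2 (5.73), Ltbp1 (54.4), Matn4 (18.6), Ncam1 (16.9), Osm (2.3), Pdgfrb (67.6), Ptgs2 (8.91), Tnn (124) and Vcam1 (24.9). These include macrophage genes, matrix genes and signals of injury. The other 3 RST day 21 libraries ran, for example, from 0.11 to 0.396 CPM for the cytokine gene Osm and from 20.7 to 35.6 CPM for Tnn. RST day 21 replicate 2 was the far low library for Gstp1, at 73.1 CPM.

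RST day 14 replicate 2 was the far high library for Nrk (12.2 CPM), Plagl1 (53.9 CPM) and Ptn (93.0 CPM), and the far low library for the muscle respiratory chain genes Cox6a2 (374 CPM) and Cox8b (146 CPM). Cilp2 stands here because its change from day 14 to 21 differed from its change from day 7 to 14, by -2.47 on the log2 scale.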

How the results depend on the processing

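All 119 genes kept their direction under every alternative but the fit of the 8 libraries alone, where 117 did. The number past the threshold was less stable. It was 2 to 4466 with 1 library left out, 0 with the 8 libraries alone (2224 at an unadjusted p below 0.05), 570 without the filter on low counts, 1218 with DESeq2 (582 higher and 636 lower) and 60 when a change over 2-fold was required. RLE scaling gave 90 (18 higher, 72 lower). The difference between the steps gave 1 to 460 genes with 1 library left out, 110 without the filter and 117 with DESeq2, and could not be tested with the 8 libraries alone. Casq2, a calcium store protein of slow muscle, did not pass (-0.12), and ran from -0.30 to 0.17 with 1 library left out, turning to 0.17 without RST day 14 replicate 1 and to 0.05 without RST day 21 replicate 2. List medians changed sign in 0 to 3 of 41 lists per alternative. The cause of these shifts was not tested. With 4 libraries a group, 1 library can decide a call, and genes near 1 CPM rest on few counts.

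The replicate numbers are not known to pair the libraries: deviations of same-numbered libraries correlated at 0.0924, 0.678, 0.473 and 0.127, and not every library correlated best with its own number. With the replicate block, 372 genes passed (54 higher, 318 lower), all 119 among them, and 2 genes differed between the steps.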
